A study of Mus musculus with 36 samples.

Results

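This comparison sets the hypothalamus of the New Zealand Obese strain, NZO/HlLtJ, against that of C57BL/6J when both were fed a high-fat, high-sugar (HFHS) diet, across all genes and with an emphasis on stress genes. The members were chosen from the titles alone: 12 libraries labelled with 44% fat plus fiber, 6 of NZO/HlLtJ and 6 of C57BL/6J, with 3 females and 3 males in each strain, out of 36 in the series. The matching control-diet libraries, labelled with 10% fat plus fiber, number 12 in the same arrangement and share no library with the HFHS comparison. All mice were put on their diet at week 6 and their tissue was taken at week 15. The remaining 12 libraries, from CAST/EiJ, entered the fits only through the estimate of spread. NZO/HlLtJ is an inbred strain with polygenic obesity and a tendency to type 2 diabetes, and C57BL/6J is the usual reference strain, which gains weight on fatty diets. The labels do not say whether libraries of a group came from separate animals, so p-values here measure the spread between libraries, which may be technical in part.

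The hypothalamus senses nutrients and hormones and sets feeding, body temperature and the hormonal stress response. Cells that face misfolded protein raise heat shock proteins, chaperones that refold or hold other proteins. HSP70 proteins bind exposed chains with the help of HSP40 partners, and HSP110 proteins release them. HSP90 and its co-chaperones finish the folding of kinases and hormone receptors, and HSP60 is a chaperone of mitochondria. The transcription factor HSF1 drives many of these genes through repeats of the letters GAA and TTC, the heat shock element. Other stress responses run in parallel, among them the unfolded protein response of the endoplasmic reticulum (ER), the integrated stress response with its transcription factor ATF4, the NRF2 response to oxidants, and the transcription that glucocorticoid hormones induce.

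The sequences below show the promoter letters of 3 heat shock genes whose strain difference had the opposite sign on the 2 diets. They are the RefSeq promoters of Hspa1a, Hspa1b and Hspb1 in GRCm38.p6, read as the 250 bases before the transcription start in the direction of the gene, with each heat shock element core (GAANNTTC or TTCNNGAA, each its own reverse complement) in capitals. Hspa1a stands at 17:34972157-34972406 on the minus strand, Hspa1b at 17:34959239-34959488 on the minus strand and Hspb1 at 5:135887669-135887918 on the plus strand.
Hspa1a: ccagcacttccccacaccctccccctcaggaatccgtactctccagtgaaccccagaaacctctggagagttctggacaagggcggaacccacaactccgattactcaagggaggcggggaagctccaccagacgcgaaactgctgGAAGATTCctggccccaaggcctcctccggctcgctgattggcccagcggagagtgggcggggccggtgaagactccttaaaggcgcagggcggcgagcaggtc
Hspa1b: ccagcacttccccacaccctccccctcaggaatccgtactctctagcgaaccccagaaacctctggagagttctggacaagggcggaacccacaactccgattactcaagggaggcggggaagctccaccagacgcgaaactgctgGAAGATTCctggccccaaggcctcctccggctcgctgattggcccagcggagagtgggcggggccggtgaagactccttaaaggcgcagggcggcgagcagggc
Hspb1: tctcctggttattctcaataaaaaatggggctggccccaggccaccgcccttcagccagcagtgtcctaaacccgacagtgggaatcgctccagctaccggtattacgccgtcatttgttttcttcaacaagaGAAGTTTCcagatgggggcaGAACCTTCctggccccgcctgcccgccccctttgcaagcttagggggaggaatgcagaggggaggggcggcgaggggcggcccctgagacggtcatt
The core of both HSP70 genes starts 104 bases before the transcription start, and the cores of Hspb1 start 117 and 97 bases before it. The HSP70 promoters differ at 3 of 250 bases, and these neighbouring genes also have nearly identical transcripts, so how reads were divided between them is uncertain. In a window from 250 bases before to 50 bases after the start, 10 of the 22 heat shock list members with a RefSeq entry held a core, beside 15.1% of all 32851 promoters in the table. Of the 9 members with an entry that were lower in NZO/HlLtJ on HFHS, 4 held one. The 3 sequences were chosen after their values were seen, from windows free of annotated exons, and a match of letters is not a measured binding site.

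The total gene count per HFHS library lay between 24959595 and 46278413 reads, and levels are given as CPM, a gene's count relative to the library total after scaling for library composition. Differences are log2 ratios of NZO/HlLtJ to C57BL/6J with both sexes weighted equally, ± the standard error (SE), and a gene was called when its adjusted p from edgeR's quasi-likelihood test was under 0.05. The lowest correlation between replicates of an HFHS group was 0.983, and the leading principal component, with 38.0% of the variance, separated the strains. All 10 defining transcripts of the hypothalamus were present in every group, with a summed level of 667 to 856 CPM in NZO/HlLtJ and 560 to 724 CPM in C57BL/6J on HFHS. Libraries labelled female and male were separated by Xist and Ddx3y in every case. Females 1 and 2 of C57BL/6J on HFHS stood apart by their immediate early transcripts, described below, and the counts over lists for both sexes on HFHS are also given without them where they change.

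Across the genome, 3160 of 20053 tested genes (15.8%) differed between the strains on HFHS, 1512 higher (7.54%) and 1648 lower (8.22%) in NZO/HlLtJ. The count was 1784 without females 1 and 2 of C57BL/6J. Of the 3160, 850 differed by over 2-fold and 1857 by under 1.5-fold. Genes with the smallest p had much the same levels on both diets. Among them was Wdfy1, an adaptor of innate immune receptors, at 91.2, 103 and 105 CPM (lowest, median and highest library) in NZO/HlLtJ and 28.7, 30.2 and 34.5 CPM in C57BL/6J. Padi2, which converts arginine to citrulline in myelin-forming cells, lay at 150, 166 and 178 CPM against 30.9, 35.5 and 41.0 CPM. In both genes every NZO/HlLtJ library was above every C57BL/6J library, as in 4.65% of all genes, and the log2 differences were 1.69 ± 0.06 for Wdfy1 and 2.21 ± 0.09 for Padi2 on HFHS, beside 1.77 and 2.27 on the control diet. On the lower side, Fggy, a carbohydrate kinase, lay at 1.22, 1.56 and 1.91 CPM in NZO/HlLtJ and 10.8, 12.9 and 14.4 CPM in C57BL/6J. Ahcy, which hydrolyses S-adenosylhomocysteine, lay at 11.5, 12.8 and 14.2 CPM against 44.7, 45.1 and 49.1 CPM. These groups did not overlap either, with log2 differences of -3.02 for Fggy and -1.84 for Ahcy.

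The control-diet comparison gave 3555 differing genes (17.7%), and 2119 were called on both diets, which is 67.1% of the HFHS calls and 59.6% of the control-diet calls. All but 3 of these 2119 had the same direction. The strain differences on the 2 diets had a Pearson correlation of 0.788 and a Spearman correlation of 0.551 across genes, which are not independent replicates. A further 1041 genes were called on HFHS alone, and 953 of them had the same sign on the control diet. Their median absolute log2 difference was 0.31 on HFHS and 0.14 on the control diet. A call on one diet alone does not show that the strain difference depended on diet. The test of that dependence called 0 genes with edgeR's quasi-likelihood test (0%), with a smallest adjusted p of 0.271. At an unadjusted p under 0.05 there were 1336 of 20053 genes, a cut that about 1 in 20 genes would pass by chance. DESeq2 called 5 in the same test and limma 0.

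**Figure D1:**
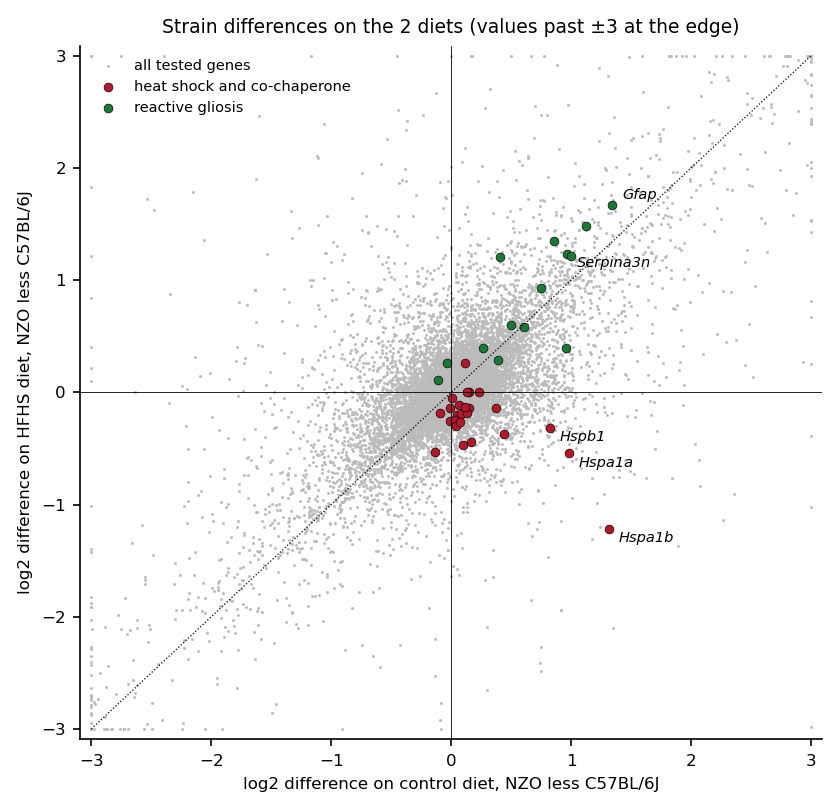
Each grey point is a tested gene, placed by its log2 strain difference on the control diet (x axis) and on HFHS (y axis), with values past 3 in size drawn at the edge. All 14 reactive gliosis genes lie above zero on HFHS and 12 of them right of zero, with Gfap at 1.34 and 1.67. Their distance from the dotted line of equal differences, HFHS less control, ran from -0.56 to 0.80 with a median of 0.22. Hspa1b, Hspa1a and Hspb1 lie right of zero and below it.

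Most heat shock genes were lower in value in NZO/HlLtJ on HFHS and higher in value on the control diet. Of 27 tested heat shock and co-chaperone genes, 10 were lower in NZO/HlLtJ on HFHS, where 8.22% of all genes were lower, and 24 of the 27 had a negative difference. Their median log2 difference was -0.19, beside -0.002 over all genes. The control diet gave 4 called members, all higher in NZO/HlLtJ, where 8.44% of all genes were higher, and 23 of 27 had a positive difference (median 0.11). Tested within each sex on HFHS, 3 members were lower in females (4.07% of all genes were) and 2 in males (4.60%), with medians of -0.21 and -0.18. The mean level of the list, as log2 CPM centred on each gene's mean over the 24 libraries of the 2 strains, lay between -0.28 and -0.18 in the NZO/HlLtJ libraries on HFHS and between -0.17 and 0.25 in those of C57BL/6J.

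**Figure D2:**
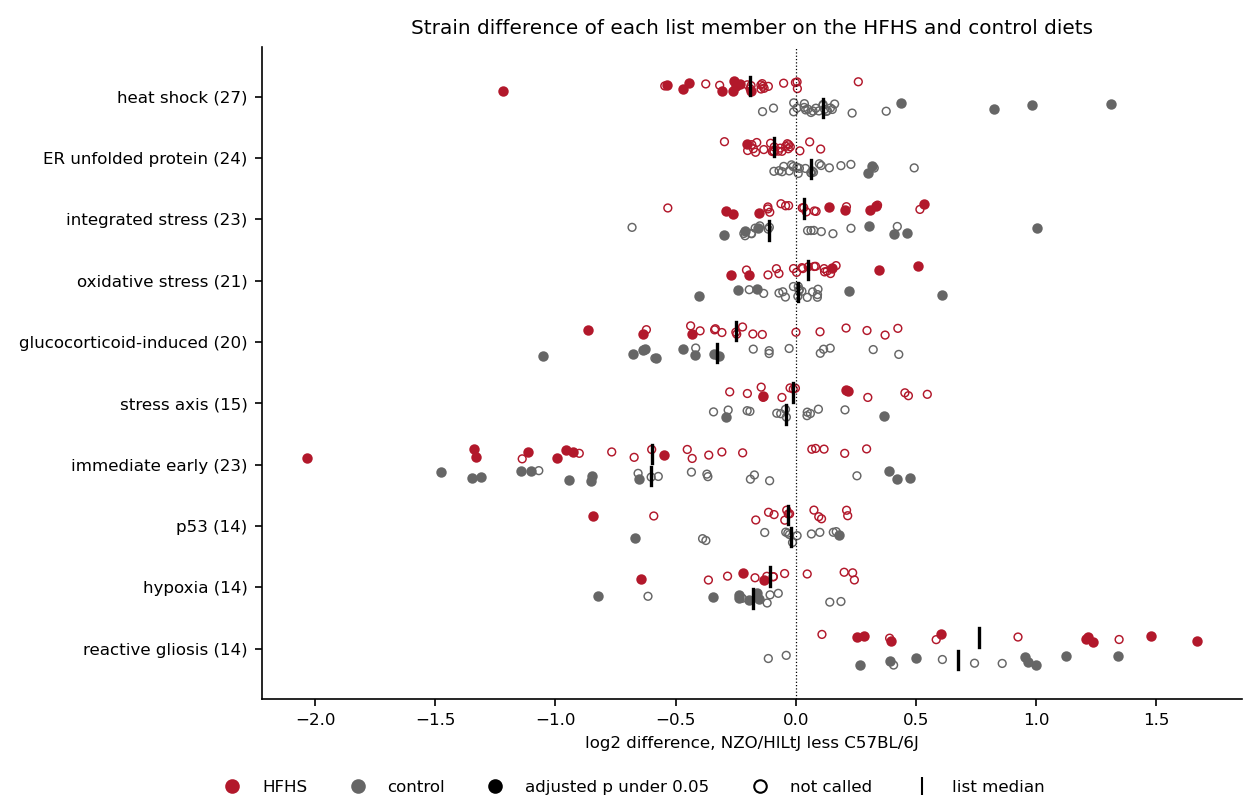
Each point is a list member, placed by its log2 difference (NZO/HlLtJ less C57BL/6J) on HFHS (red) or the control diet (grey); filled points were called and the black bar is the list median, with the number of tested members in brackets. The heat shock median is at -0.19 on HFHS and 0.11 on the control diet, and the gliosis median is at 0.76 and 0.68.

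The inducible HSP70 genes had the widest swing. Hspa1b (17:34956436-34959238, minus strand) lay at 3.84, 4.64 and 5.73 CPM in NZO/HlLtJ on HFHS and at 5.03, 9.74 and 21.5 CPM in C57BL/6J. The ranges met only at their ends, with a log2 difference of -1.22 ± 0.38 (edgeR adjusted p = 0.0237). The same gene lay on the control diet at 14.98, 23.96 and 52.6 CPM in NZO/HlLtJ and 5.57, 9.55 and 21.9 CPM in C57BL/6J, a difference of 1.31 ± 0.35 (edgeR adjusted p = 0.00841). C57BL/6J thus held nearly the same level on both diets, and the low NZO/HlLtJ value on HFHS stood beside a high one on the control diet. Its neighbour Hspa1a (17:34969190-34972156, minus strand) lay at 12.8, 14.4 and 15.9 CPM against 12.6, 19.9 and 34.6 CPM on HFHS, and was not called there (-0.55 ± 0.24, edgeR adjusted p = 0.133). It was higher in NZO/HlLtJ on the control diet (0.98 ± 0.24, edgeR adjusted p = 0.00284). Summed over the near-identical pair, the level on HFHS was 19.1 ± 1.70 CPM in NZO/HlLtJ and 32.4 ± 13.7 CPM in C57BL/6J (SD, n = 6). The sum on the control diet was 72.6 ± 33.8 CPM and 33.1 ± 13.6 CPM.

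Release factors of the HSP110 family were lower in NZO/HlLtJ on HFHS. Hsph1 (5:149614287-149636376, minus strand) lay at 289, 303 and 314 CPM in NZO/HlLtJ and 345, 408 and 513 CPM in C57BL/6J. No library of one strain reached the other (non-overlap with NZO/HlLtJ below held for 4.87% of all genes), and the difference was -0.47 ± 0.10 (edgeR adjusted p = 0.000715). The ranges overlapped on the control diet, from 383 to 514 CPM in NZO/HlLtJ and from 331 to 511 CPM in C57BL/6J. Hspa4 was at 248, 262 and 274 CPM against 272, 297 and 323 CPM, with ranges that overlapped at their ends and a difference of -0.19 ± 0.04 (edgeR adjusted p = 0.000284). Hspa4l differed by -0.23 (edgeR adjusted p = 0.0224).

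Partners of HSP70 and HSP90 followed the same direction. Dnaja1, an HSP40 co-chaperone, lay at 253, 271 and 300 CPM in NZO/HlLtJ and 276, 319 and 368 CPM in C57BL/6J, with overlapping ranges and a difference of -0.25 (edgeR adjusted p = 0.0249). The HSP90 co-chaperones Chordc1, Stip1 and Ahsa1 differed by -0.45, -0.30 and -0.26. Stip1, which links HSP70 to HSP90, lay at 175, 188 and 197 CPM against 197, 228 and 272 CPM, and Ahsa1, which activates the HSP90 ATPase, at 69.3, 72.4 and 76.3 CPM against 77.0, 85.4 and 97.5 CPM. Neither of these overlapped between the strains, whereas Chordc1 did, at 49.9, 54.7 and 63.2 CPM against 57.8, 72.0 and 97.4 CPM. Their edgeR adjusted p-values were 0.0117 for Chordc1, 0.0172 for Stip1 and 0.0382 for Ahsa1. The abundant chaperones Hspa8 (-0.14, edgeR adjusted p = 0.268) and Hsp90aa1 (-0.20, edgeR adjusted p = 0.0953) were not called.

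Mitochondrial and small chaperones completed the group. Hspd1, the mitochondrial HSP60, lay at 160, 178 and 186 CPM in NZO/HlLtJ and 187, 216 and 230 CPM in C57BL/6J, so the ranges came close without overlapping (-0.26 ± 0.05, edgeR adjusted p = 0.000701). Its partner Hspe1 was not called (-0.19, edgeR adjusted p = 0.189). Cryab, a small heat shock protein that oligodendrocytes also express, lay at 43.4, 47.7 and 52.0 CPM against 58.9, 70.03 and 76.6 CPM with no overlap (-0.53 ± 0.15, edgeR adjusted p = 0.0147). Hspb1, another small heat shock protein, lay at 5.21, 5.93 and 6.68 CPM against 5.72, 7.04 and 10.6 CPM and was not called (-0.32, edgeR adjusted p = 0.372), although it was higher in NZO/HlLtJ on the control diet (0.83, edgeR adjusted p = 0.00488).

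**Figure D3:**
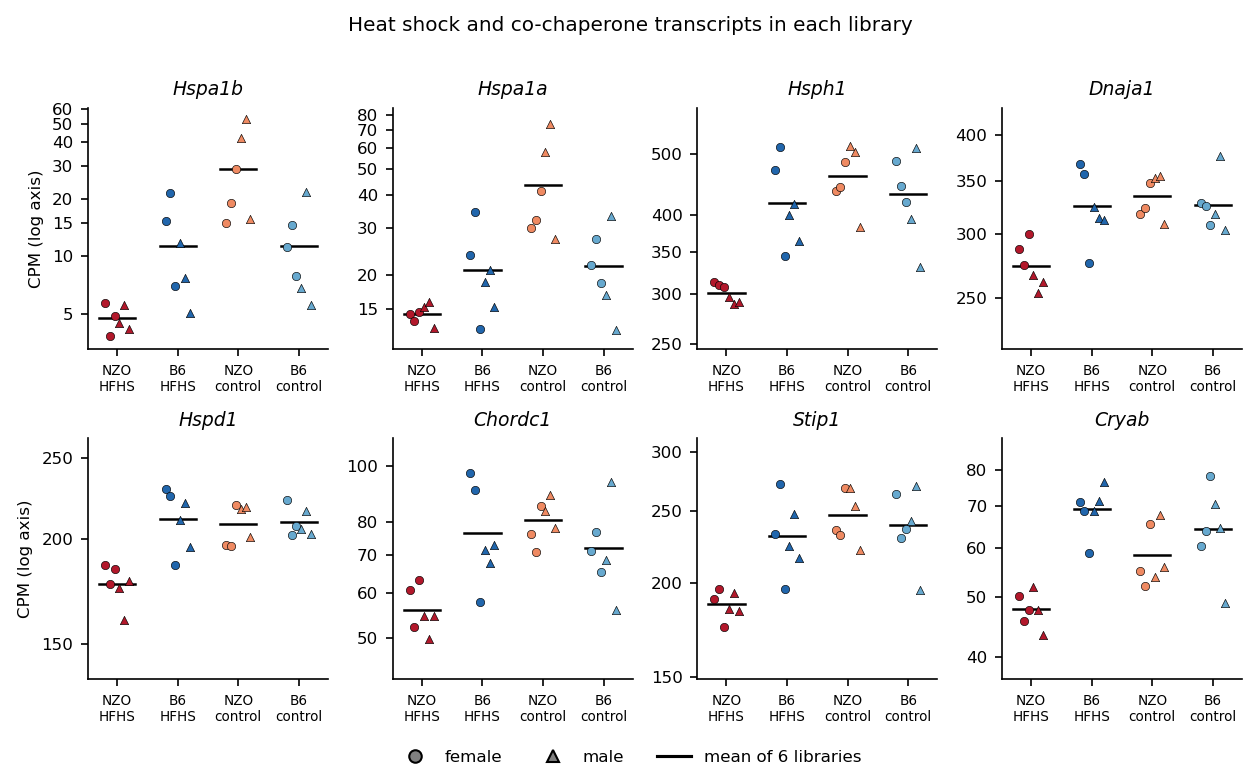
CPM on log axes of 8 heat shock and co-chaperone genes in each of 24 libraries, by strain and diet; circles are females, triangles are males and bars are group means of 6 libraries. The NZO/HlLtJ libraries on HFHS form the lowest and tightest group for most of these genes, for example 289 to 314 CPM for Hsph1.

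Within NZO/HlLtJ, the HFHS libraries set against the control-diet libraries gave 29 called genes, 8 of them lower on HFHS (0.0399% of all tested genes). Heat shock genes made up 6 of those 8: Hspa1b (-2.55), Hspa1a (-1.57), Hspb1 (-0.99), Dnajb1 (-0.87), Hsph1 (-0.61) and Fkbp4 (-0.32), with edgeR adjusted p-values from 0.00272 to 0.0366. Fkbp4 encodes an HSP90-bound immunophilin. This contrast uses the same NZO/HlLtJ libraries as the strain contrasts and is no separate evidence. In C57BL/6J the diets gave 0 calls with edgeR (0%), with 687 genes at an unadjusted p under 0.05, and the heat shock median was -0.01.

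The test of the difference between diets gave Hspa1b a change of -2.53 ± 0.52 (unadjusted p = 3.18e-05, edgeR adjusted p = 0.271) and Hspa1a one of -1.53 ± 0.34 (unadjusted p = 8.12e-05, edgeR adjusted p = 0.271). Hspb1 (-1.14), Dnajb1 (-0.81), Chordc1 (-0.61) and Hsph1 (-0.57) also missed the threshold, with edgeR adjusted p-values of 0.454 to 0.486. Over the whole list 26 of 27 changes were negative, with a median of -0.27. Of the 27, 18 were at an unadjusted p under 0.05 in edgeR's test, beside 1336 of all 20053 genes. In this test DESeq2 called Hspa1b, and edgeR without control male 2 of C57BL/6J called Hspa1b and Hspa1a.

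The number of heat shock calls on HFHS depended on single libraries of both strains. Lower members numbered 6 without female 1 of C57BL/6J, 5 without its female 2, 6 without female 2 of NZO/HlLtJ and 15 without female 3 of C57BL/6J. In the same order, lower genes among all tested genes numbered 1319, 1349, 1390 and 1669, beside 1648 with all libraries. Without females 1 and 2 of C57BL/6J together, which leaves 1 female library in that group, edgeR called 0 members (4 at an unadjusted p under 0.05), the median moved to -0.10 and 21 members stayed negative. For single genes the differences then were -0.68 for Hspa1b, -0.29 for Hsph1, -0.16 for Hspd1 and -0.45 for Cryab.

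Genes of the ER unfolded protein response differed little. Herpud1, which helps to degrade ER proteins, was the single called member of 24 on HFHS and was lower in NZO/HlLtJ (-0.20, edgeR adjusted p = 0.0300), and the median was -0.09. It was not called without females 1 and 2 of C57BL/6J, where the median was -0.01. On the control diet Hspa5, the ER HSP70 (0.30, edgeR adjusted p = 0.0190), and Pdia4, an ER disulfide isomerase (0.32, edgeR adjusted p = 0.0325), were higher in NZO/HlLtJ. On HFHS neither was called, and Hspa5 lay at 415, 426 and 461 CPM in NZO/HlLtJ within the C57BL/6J range of 356 to 521 CPM.

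**Figure D4:**
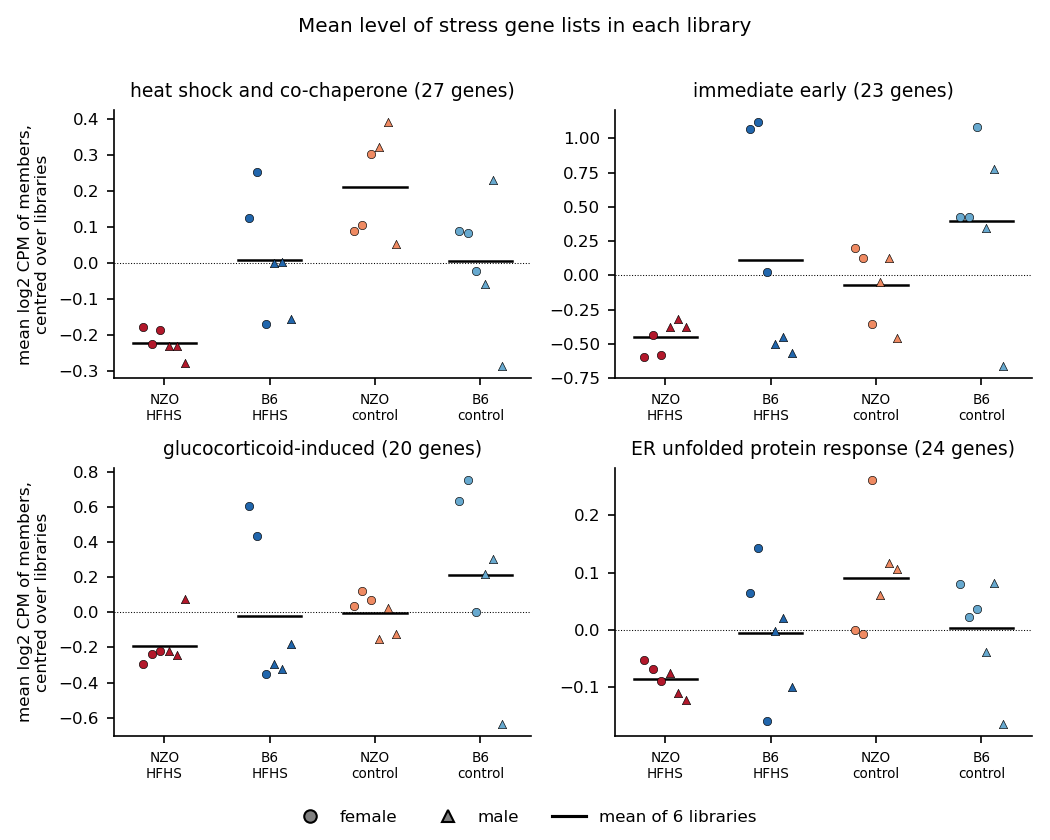
Mean level of 4 stress gene lists in each of 24 libraries, as log2 CPM centred on each gene's mean over those libraries; circles are females, triangles are males and bars are group means. Females 1 and 2 of C57BL/6J on HFHS are at 1.07 and 1.12 for immediate early genes and at 0.60 and 0.44 for glucocorticoid-induced genes, above the other libraries on that diet.

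The integrated stress response was split. Of 23 genes, 5 were higher (7.54% of all genes were) and 3 lower in NZO/HlLtJ on HFHS, with a median of 0.03. Higher were Slc7a11, the cystine transporter (0.53), Atf5 (0.33), Ddit3 (0.31), Slc7a1, which carries cationic amino acids (0.20), and Slc3a2, the partner chain of Slc7a11 (0.14), with edgeR adjusted p-values from 0.00173 to 0.0328. Lower were Mthfd2, a mitochondrial folate enzyme (-0.29), Sesn2, an inhibitor of mTORC1 (-0.26), and Atf4 itself (-0.15), with edgeR adjusted p-values from 0.00267 to 0.0491. Slc7a11 lay at 118, 133 and 200 CPM in NZO/HlLtJ and 68.2, 105 and 115 CPM in C57BL/6J, without overlap. Sesn2 lay at 14.4, 15.6 and 17.7 CPM against 17.3, 18.98 and 20.4 CPM, with ranges that overlapped at their ends. All 8 had the same sign on the control diet, where Slc7a11 differed by 0.46 and Sesn2 by -0.21. With females 1 and 2 of C57BL/6J left out, 2 members were higher and 1 was lower.

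Of 21 oxidative stress genes 3 were higher and 2 lower, where 7.54% and 8.22% of all genes were. Hmox1, which breaks down haem, lay at 5.37, 5.95 and 6.55 CPM in NZO/HlLtJ and 3.47, 4.04 and 4.87 CPM in C57BL/6J, without overlap (0.51, edgeR adjusted p = 0.00121, and 0.61 on the control diet). The NRF2 targets Nqo1 (0.35, edgeR adjusted p = 0.0216) and Txnrd1 (0.15, edgeR adjusted p = 0.00326) were higher as well. Fth1, the ferritin heavy chain (-0.27, edgeR adjusted p = 0.0299), and Sod2, the mitochondrial superoxide dismutase (-0.19, edgeR adjusted p = 0.00803), were lower. Leaving out females 1 and 2 of C57BL/6J left 2 higher and 0 lower (3 at an unadjusted p under 0.05 in edgeR's test, in either direction). Of 14 hypoxia genes, 3 were lower on HFHS (8.22% of all genes were), with a median of -0.11. On the control diet 7 were lower (9.29% of all genes were), with a median of -0.18. The 3 on HFHS were Pdk1, a brake on pyruvate oxidation, Bnip3 (-0.22) and Egln1 (-0.13). The Egln1 difference was -0.05 without females 1 and 2 of C57BL/6J. Pdk1 lay at 37.9, 39.5 and 41.3 CPM against 56.4, 62.3 and 64.6 CPM, and its difference was -0.64 ± 0.04 on HFHS and -0.82 on the control diet. Of 14 p53 genes 1 was lower, a share no higher than the 8.22% over all genes: Eda2r, a death receptor (-0.84, edgeR adjusted p = 0.0215, and -0.69 with an adjusted p of 0.220 without those libraries).

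Immediate early genes, which neurons raise within minutes of activity, differed widely among the C57BL/6J libraries. Of 23 genes, 8 were lower in NZO/HlLtJ on HFHS (8.22% of all genes were) and 5 had a positive difference, with a median of -0.60. The 8 were Fosb (-2.04), Egr1 (-1.34), Egr3 (-1.33), Nr4a1 (-1.12), Nr4a3 (-0.99), Arc (-0.95), Fosl2 (-0.93) and Sik1 (-0.55), with edgeR adjusted p-values from 0.000171 to 0.0341. Fos lay at 92.9 and 87.0 CPM in females 1 and 2 of C57BL/6J, at 32.3 CPM in female 3 and between 9.95 and 13.6 CPM in its males, while all NZO/HlLtJ libraries lay between 12.8 and 19 CPM. Fos was therefore high in the C57BL/6J females and not called over both sexes (-0.90, edgeR adjusted p = 0.128). Arc, a synaptic capsid protein, lay at 8.04, 9.81 and 12.6 CPM in NZO/HlLtJ and 13.5, 14.9 and 34.7 CPM in C57BL/6J without overlap. In females 16 of 23 were lower (4.07% of all genes were) and the median was -1.56. In males 0 were called (3 at an unadjusted p under 0.05) and the median was 0.17. The edgeR test of the difference between the sexes called 0 of the 23, with 20 at an unadjusted p under 0.05. Without females 1 and 2 of C57BL/6J, edgeR called 0 members (3 at an unadjusted p under 0.05), with a median of -0.20 and an Arc difference of -0.51. With the control diet, 9 were lower (9.29% of all genes were) and 3 higher, with a median of -0.60.

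Glucocorticoid-induced genes moved with the same libraries. Of 20 genes, 3 were lower on HFHS (8.22% of all genes were), with a median of -0.25. These were Tsc22d3, which encodes the anti-inflammatory protein GILZ (-0.87, edgeR adjusted p = 0.000294), Arrdc2 (-0.64, edgeR adjusted p = 0.00506) and Klf9 (-0.43, edgeR adjusted p = 0.00715). Tsc22d3 lay at 43.9, 49.5 and 67.1 CPM in NZO/HlLtJ and 69.6, 79.4 and 146 CPM in C57BL/6J, without overlap, and its 2 highest values were females 1 and 2 of C57BL/6J. Without those libraries edgeR called 0 members (4 at an unadjusted p under 0.05), the median was 0.09 and the Tsc22d3 difference was -0.50. The control-diet libraries gave 9 lower (9.29% of all genes were), with a median of -0.33.

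In the stress axis itself, 3 of 15 tested genes were called on HFHS, where 15.8% of all genes were, and 2 without females 1 and 2 of C57BL/6J. Pcsk2, a protease that cuts neuropeptides from their precursors, lay at 282, 295 and 307 CPM in NZO/HlLtJ and 234, 257 and 270 CPM in C57BL/6J, without overlap (0.21, edgeR adjusted p = 0.00215). Adcyap1r1, the receptor of the peptide PACAP, was higher by 0.22 (edgeR adjusted p = 0.00216), and Nr3c1, the glucocorticoid receptor, was lower (-0.14, edgeR adjusted p = 0.0393) but not without those libraries (edgeR adjusted p = 0.198). Avp, vasopressin, lay at 185 to 238 CPM in NZO/HlLtJ males and 82.0 to 99.4 CPM in C57BL/6J males, while the females of both strains lay between 73.3 and 115 CPM. Its difference was 1.22 in males (edgeR adjusted p = 0.00576) and was not called over both sexes (0.45, edgeR adjusted p = 0.147). Avp was not the widest member: differences over the list ran from -1.17 to 0.64 in females and from -0.33 to 1.37 in males. Within sexes 1 member was called in females and 2 in males, all higher (3.85% and 3.40% of all genes were). The edgeR test of the difference between the sexes called 0 of the 15 genes, with 2 at an unadjusted p under 0.05.

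Reactive gliosis genes are those that astrocytes raise in injured or inflamed tissue. Of 14 genes, 9 were higher in NZO/HlLtJ on HFHS (7.54% of all genes were), all 14 differences were positive, and the median was 0.76. The control diet gave 8 higher (8.44% of all genes were) and 2 negative differences, with a median of 0.68. Tested within each sex on HFHS, 8 were higher in females (3.85% of all genes were) and 4 in males (3.40%). Gfap, the intermediate filament of astrocytes (11:102887336-102900912), lay at 760, 951 and 1196 CPM in NZO/HlLtJ and 254, 298 and 339 CPM in C57BL/6J, without overlap, with a difference of 1.67 ± 0.18 (edgeR adjusted p = 2.92e-08). Aspg (1.48), the cytokine receptor Osmr (1.22), the protease inhibitor Timp1 (1.21), the adhesion receptor Cd44 (0.60), Vim (0.40), the transcription factor Stat3 (0.29) and S1pr3 (0.26) were higher too, with edgeR adjusted p-values from 7.90e-08 to 0.0183. The secreted iron-binding protein Lcn2 (1.35, edgeR adjusted p = 0.0648), Steap4 (0.93, edgeR adjusted p = 0.0668) and Socs3 (0.39, edgeR adjusted p = 0.0918) were not called. Leaving out females 1 and 2 of C57BL/6J gave 6 higher, with a median of 0.73. Of 10 astrocyte markers, 5 were higher on HFHS (3 without those libraries), with a median of 0.22 and a summed level of 3863 to 4684 CPM against 3372 to 3906 CPM, and in bulk tissue more cells of a type and more RNA per cell cannot be told apart.

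Serpina3n, a secreted protease inhibitor (12:104406729-104414329), was the single gene called in edgeR's test of whether the strain difference on HFHS depended on sex. In females on HFHS it was at 170 ± 22.8 CPM in NZO/HlLtJ and 44.3 ± 8.94 CPM in C57BL/6J, and in males at 100 ± 13.0 CPM and 69.2 ± 6.42 CPM (SD, n = 3). All NZO/HlLtJ libraries were above all C57BL/6J libraries within each sex, with a log2 difference of 1.94 in females and 0.53 in males. The difference between the sexes was 1.41 ± 0.22 (edgeR adjusted p = 0.00653), the sole call among 20053 genes (0.00499%), with 816 at an unadjusted p under 0.05. It was not called without male 2 of NZO/HlLtJ (edgeR adjusted p = 0.0592) or without females 1 and 2 of C57BL/6J (1.27, edgeR adjusted p = 0.673). Females and males gave 1590 and 1603 called genes of the strain difference (7.93% and 7.99%), 966 of them in both, all with the same direction.

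**Figure D5:**
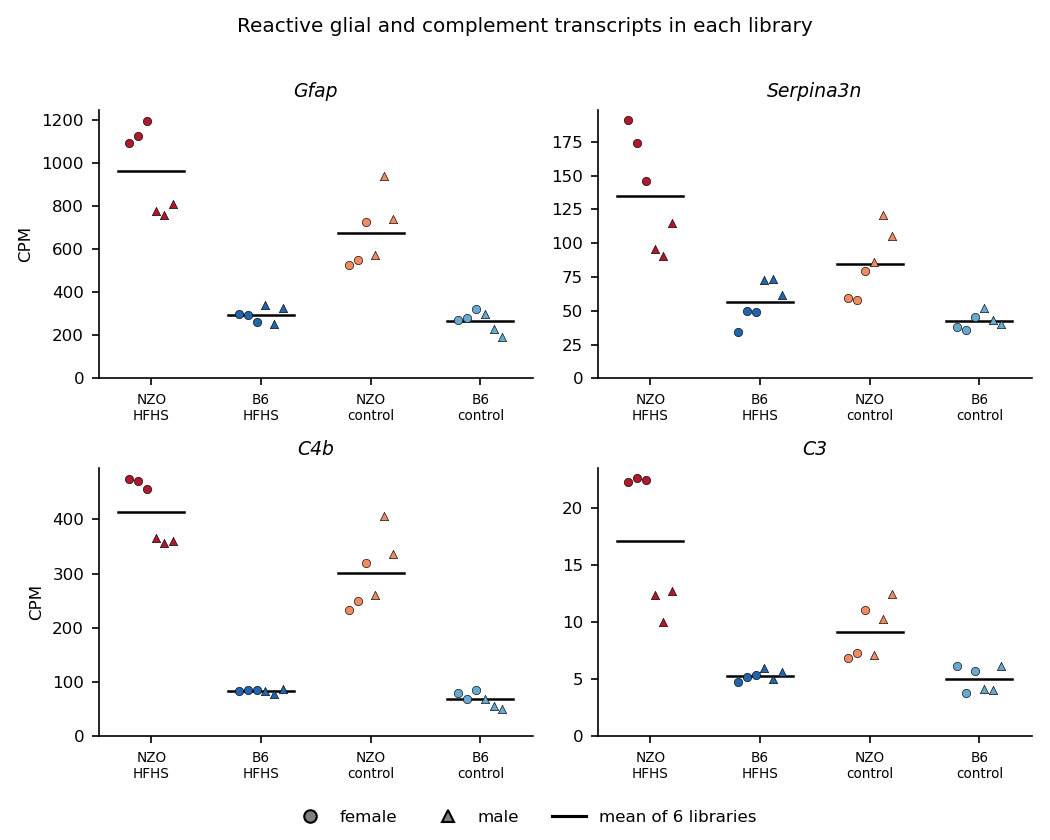
CPM of 4 genes in each of 24 libraries, by strain and diet, on axes from 0; circles are females, triangles are males and bars are means of 6 libraries. All NZO/HlLtJ libraries on HFHS lie above all C57BL/6J libraries on that diet, and the NZO/HlLtJ females (22.3 to 22.6 CPM for C3) lie above the males (10.1 to 12.8 CPM).

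Of 10 complement genes 3 were higher and 4 lower on HFHS, where 7.54% and 8.22% of all genes were. Without females 1 and 2 of C57BL/6J 2 were higher and 3 lower, and Serping1 and Cfb were not called (edgeR adjusted p = 0.452 and 0.387). C4b (17:34728380-34743882, minus strand), whose reads may be shared with its close copy C4a, lay at 357, 411 and 474 CPM in NZO/HlLtJ and 77.4, 84.7 and 86.8 CPM in C57BL/6J, a 4.90-fold difference without overlap (2.29 ± 0.10, edgeR adjusted p = 7.47e-18). C3, the central component, lay at 10.1, 17.5 and 22.6 CPM against 4.75, 5.27 and 5.96 CPM (1.61 ± 0.25, edgeR adjusted p = 1.12e-05). The C3 difference on the control diet was 0.87, and the test between diets gave an unadjusted p of 0.0438 and an edgeR adjusted p of 0.740. Serping1, an inhibitor of the C1 complex, was higher (0.62, edgeR adjusted p = 0.0492). The C1q chains C1qa (-0.36), C1qb (-0.41) and C1qc (-0.35), which microglia make, and Cfb (-0.84) were lower, with edgeR adjusted p-values from 0.00427 to 0.0407. Of 10 microglia markers 4 were higher (1 without females 1 and 2 of C57BL/6J), among them P2ry12, a purine receptor (0.47, edgeR adjusted p = 0.000468). Of 15 antigen presentation genes, 6 were higher (4 without those libraries), among them the immunoproteasome subunit Psmb8 (0.90), the class I activator Nlrc5 (0.80) and the peptide transporter Tap2 (0.46). Of 19 interferon-induced genes 3 were higher (2 without those libraries) and 1 was lower, with a median of 0.18, and the control diet gave 3 and 1 with a median of 0.28. On the control diet 1 microglia marker and 6 antigen presentation genes were higher, where 8.44% of all genes were. That share was 7.54% on HFHS, and 1 antigen presentation gene was lower on each diet. H2-K1, a class I heavy chain that differs in sequence between strains and has near-identical family members, was at 11.5, 14.6 and 17.6 CPM against 27.1, 33.2 and 34.7 CPM on HFHS. Its difference (-1.12) is uncertain for that reason.

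Among the peptides that set feeding and energy balance, those that differed were higher in NZO/HlLtJ. Of 20 genes, 5 were higher in NZO/HlLtJ on HFHS (7.54% of all genes were), with a median of 0.19. Npy, the appetite-raising neuropeptide Y (6:49822710-49829507), lay at 15.7, 19.9 and 24.8 CPM in NZO/HlLtJ and 8.47, 11.1 and 15.8 CPM in C57BL/6J. The ranges met only at 15.7 and 15.8 CPM, and the difference was 0.79 ± 0.22 (edgeR adjusted p = 0.0136). On the control diet it was -0.50 (edgeR adjusted p = 0.125), with 8.06, 14.6 and 22.1 CPM against 15.9, 19.4 and 24.6 CPM, and the change of sign had an unadjusted p of 0.000304 and an edgeR adjusted p of 0.454. Agrp, the peptide that the same arcuate neurons release, lay at 2.73, 3.50 and 5.89 CPM against 1.79, 2.04 and 2.96 CPM and was not called (0.80, edgeR adjusted p = 0.0558). Cartpt, the precursor of the appetite-lowering peptide CART, lay at 57.2, 66.8 and 81.4 CPM against 37.6, 46.5 and 54.7 CPM, without overlap (0.54 on HFHS and 0.73 on the control diet). Pmch (0.43), the precursor of melanin-concentrating hormone, Vgf (0.35) and Nucb2 (0.27) were higher, with edgeR adjusted p-values of 0.0493, 0.0360 and 0.00118. Pomc, which gives rise to melanocortins, was not called (-0.31, edgeR adjusted p = 0.286). The called number was 3 without females 1 and 2 of C57BL/6J, and Npy was not among them (0.82, edgeR adjusted p = 0.0758).

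On HFHS the called receptors for feeding signals were lower in NZO/HlLtJ, while the control diet gave calls in both directions. The list joins receptors with Irs1, Irs2 and Socs3, signalling proteins inside the cell. Of its 20 tested genes, 3 were lower in NZO/HlLtJ on HFHS (8.22% of all genes were) and none was higher. These were Cckbr for cholecystokinin (-0.40), and Npy2r (-0.35) and Npy1r (-0.31) for neuropeptide Y, with edgeR adjusted p-values of 0.00540, 0.00134 and 0.0279. None of the 3 was called without females 1 and 2 of C57BL/6J, which leaves 1 female library in that group. On the control diet Npy2r differed by -0.36, and Cckbr and Npy1r by -0.07 and 0.06. Over the list, that diet gave 2 higher and 2 lower members, where 8.44% and 9.29% of all genes were.

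Cholesterol synthesis genes were lower on HFHS in 6 of 20 cases, where 8.22% of all genes were. On the control diet 6 were lower and 1 was higher, where 9.29% and 8.44% of all genes were. Sc5d, a late enzyme of the pathway, lay at 34.7, 35.9 and 40.2 CPM in NZO/HlLtJ and 54.9, 60.2 and 67.2 CPM in C57BL/6J, without overlap (-0.72 ± 0.06, edgeR adjusted p = 4.54e-11, and -0.47 on the control diet). The sterol enzyme Msmo1 (-0.36, edgeR adjusted p = 0.000469) was lower as well. Of 11 markers of oligodendrocytes, cells that make cholesterol for myelin, 5 were lower on HFHS (8.22% of all genes were) and all 11 differences were negative. On the control diet 9 were lower (9.29% of all genes were) and all 11 differences were negative, with a median of -0.46. Their median on HFHS was -0.40, and their summed level on that diet was 3850 to 4513 CPM in NZO/HlLtJ and 4598 to 6906 CPM in C57BL/6J. Their part in the differences of Cryab and of the cholesterol genes was not tested. Without females 1 and 2 of C57BL/6J, 4 cholesterol genes and 1 oligodendrocyte marker were lower. Of 40 nuclear oxidative phosphorylation genes only Sdha was called (-0.13, edgeR adjusted p = 0.00221), and of 31 proteasome genes only Psma1 (-0.18, edgeR adjusted p = 0.0129). Of 12 neuron markers edgeR called 0, with 2 at an unadjusted p under 0.05 and a median of -0.05. Of 9 blood markers 3 were higher (7.54% of all genes were), with a summed level of 563 to 1140 CPM against 312 to 806 CPM. The part of blood in other differences was not tested.

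Over all tested genes, heat shock genes included, the smallest p-value in the test between diets belonged to Mir22hg, the host transcript of a microRNA. It lay at 11.2, 12.3 and 13.1 CPM in NZO/HlLtJ and 9.26, 9.86 and 11.8 CPM in C57BL/6J on HFHS (0.27, edgeR adjusted p = 0.0138) and was lower in NZO/HlLtJ on the control diet (-0.29, edgeR adjusted p = 0.00881). The ranges overlapped on both diets, and the change was 0.56 ± 0.11 (unadjusted p = 1.88e-05, edgeR adjusted p = 0.271). With Mir22hg and Hspa1b, Suv420h2, a histone H4 methyltransferase, made up the 3 genes called on both diets in opposite directions, at -0.21 on HFHS and 0.22 on the control diet. Without females 1 and 2 of C57BL/6J the HFHS call was lost for Suv420h2 (edgeR adjusted p = 0.236) and Hspa1b (edgeR adjusted p = 0.489), and Suv420h2 was called on HFHS in 11 of 23 other settings. Gpr146 and Ehd3 were lower in NZO/HlLtJ on the control diet alone (-0.28 and -0.24), and Dram1, an autophagy regulator, was higher there (0.64, edgeR adjusted p = 0.00128), with changes of 0.33, 0.28 and -0.91 between diets at unadjusted p-values of 6.27e-05, 6.12e-05 and 7.87e-05. Cdk5rap3 was higher on HFHS (0.27, edgeR adjusted p = 0.00154) beside -0.05 on the control diet.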

How the data were processed

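PolyA RNA from frozen hypothalamus was sequenced with spike-ins, per the labels' protocols. The submitters' processing notes name DESeq2 and GRCm38, the genome of C57BL/6J; no aligner or counting program is given in the sources used here, and any effect of strain alleles on read assignment was not tested. The authors deposited expected counts per gene (20.98% of values were not whole at a tolerance of 0.001) and log2 values after variance stabilization. Counts were rounded and tested with edgeR 4.0.16 (quasi-likelihood F-test) in R 4.3.3, with TMM scaling and the filterByExpr filter. The fit held 12 group means over 36 libraries with 24 residual degrees of freedom, and p-values were adjusted by Benjamini-Hochberg over 20053 of 24265 genes. CPM used TMM-scaled library sizes. The deposited log2 values served one alternative, with limma 3.58.1; DESeq2 1.42.0 and sva 3.50.0 served others. The fit was tested on simulated data.

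The members and lists were chosen with earlier results of these data known. Named genes were the called members of 9 stress lists (at least 4 by p), the 10 genes of smallest p in each direction of the HFHS contrast and of the test between diets, 4 members of each other list and 5 of the sex difference; other list members were named after their values were seen. The promoter rule, at most 4 called members of smallest p, was not followed: shown are the 3 list members with a core before the start and no annotated exon in the window, of which Hspa1b was called on HFHS.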

Additional observations from a re-analysis of the deposited data

Results flagged for a closer look

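For 94 sets of 6 HFHS libraries (a gene or a list mean in 1 strain), the highest or lowest library was set against the others with Dixon's test, and 4 stood apart, where chance gives about 1 in 20. Male 3 of NZO/HlLtJ had a mean glucocorticoid-induced level of 0.0763 (log2), the next library being at -0.22, a mean hypoxia level of -0.171, the next being at -0.05, and Fos at 19 CPM, the next being at 15.1 CPM. Female 2 of C57BL/6J had Hspb1 at 10.6 CPM, the next being at 7.09 CPM. Serpina3n is listed because its strain difference on HFHS was larger in females than in males, by 1.41 on the log2 scale in edgeR's test of that difference.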

How the results depend on the processing

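No paired analysis was possible because the labels give the libraries no shared replicate numbers. Leaving out females 1 and 2 of C57BL/6J together, chosen after seeing the data, gave 1784 calls on HFHS in place of 3160, 555 in females in place of 1590, and 0 sex differences. In the test between diets DESeq2 called 5 genes, and leaving out single libraries gave 0 to 6, the 6 without control male 2 of C57BL/6J. In males 2 surrogate variables gave 2456 calls, and leaving out single libraries gave 1057 (without male 2 of NZO/HlLtJ) to 2151 (without control female 1 of CAST/EiJ). The sex difference numbered 4 with only the libraries compared, 5 with a term in the label number, 8 with DESeq2 and 0 to 4 without single libraries. The cause was not tested. Gene values were followed under the alternatives for HFHS strain differences, changes between diets and the sex difference on HFHS, and none of those changed sign. Control-diet, within-sex and within-strain gene values were not followed in this way. Hsph1, Hspa4, Hspd1 and Cryab were called in all 23 other settings that changed 1 choice at a time, Hspa1b in 17, Dnaja1 in 18, Ahsa1 in 13, Atf4 in 7, Nr3c1 in 8 and Pmch in 11. Lower heat shock genes numbered 5 to 15 over these, and lower immediate early genes 5 to 13.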

Other observations

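Most transcripts of the mitochondrial genome were lower in NZO/HlLtJ on both diets. All 15 tested mitochondrial genes had a negative difference on HFHS and 11 were called (8.22% of all genes were lower), beside 10 called on the control diet (9.29%). The largest among those named here was mt-Nd3, a subunit of respiratory complex I, at -1.07 on HFHS and -1.10 on the control diet, and mt-Nd2, of the same complex, was at -0.59 and -0.68 (edgeR adjusted p = 3.55e-06 and 1.57e-05 on HFHS). The share of counts from the mitochondrial genome was 4.09% to 6.15% over the HFHS libraries.

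Scg5, the secretory chaperone 7B2 that assists Pcsk2, was 1.00 higher in NZO/HlLtJ on HFHS (edgeR adjusted p = 1.84e-15) and 1.02 higher on the control diet. Called genes were unevenly spread over the numbered chromosomes, from 9.12% of tested genes on chromosome 16 to 22.4% on chromosome 14 and 22.1% on chromosome 17.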
